A study of Mus musculus with 6 samples.

Results

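The interleukin-1 receptor-associated kinases and the core of the NF-kappaB pathway were followed across 6 expression arrays of mouse embryonic stem cells that had kept or lost Dicer. The set was defined by name and holds 10 genes: Irak1, Irak2, Irak3, Irak4, Myd88, Traf6, Rela, Nfkb1, Nfkb2 and Nfkbia. A gene was taken as measured when at least 1 probe set carried its symbol and no other in the platform annotation. By this rule 8 of the 10 genes were measured, by 21 probe sets, out of 18193 genes and 34945 probe sets with 1 symbol in the whole series. Irak4 and Nfkb1 had no probe set under their symbol alone and were not analysed here. Of the 8 measured genes, 7 reached an average log2 value of 4 across the arrays and entered the test, and Traf6 did not.

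Both groups were embryonic stem cells that carried floxed copies of both Dicer alleles and grew on gelatin in medium with fetal calf serum and LIF. The Dcr WT group received GFP alone and the Dcr KO group received GFP with Cre recombinase, and RNA was taken from 3 samples of each group on day 5. The Dcr KO samples were polyclonal populations rather than clones, so cells that had kept Dicer may be among them. No group received Cre without floxed alleles, so an effect of Cre and an effect of Dicer loss cannot be told apart. The methods call the samples biological triplicates, and the labels do not say whether a triplicate was a separate transfection, so the p-values measure the spread between these samples. Each value is the level of a transcript on the log2 scale, on which a step of 1 is a 2-fold change, and a lower value in such bulk samples can come from fewer cells of a kind or from less RNA per cell, which cannot be told apart.

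The IRAK kinases act just below the Toll-like and interleukin-1 receptors. A receptor that has met its ligand recruits the adaptor MYD88, which gathers IRAK4 and then IRAK1 or IRAK2. These kinases pass the signal to the ubiquitin ligase TRAF6, and from there to the kinases that mark IkappaB-alpha (the product of Nfkbia) for destruction. RELA and its partner p50 (the product of Nfkb1) are then free to enter the nucleus, while the p52 subunit made from Nfkb2 serves the non-canonical branch. IRAK3, also called IRAK-M, lacks the kinase activity of its relatives and is known as a brake on Toll-like receptor signalling in macrophages. Undifferentiated mouse embryonic stem cells are known for a weak response to the ligands of these receptors.

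Dicer cuts the precursors of most microRNAs, and the group that mouse embryonic stem cells make in greatest amount shares the hexamer AAGUGC at bases 2 to 7. The arrays read transcripts after the loss of Dicer, which is not limited to this group, and no microRNA level was used here. As background, mature sequences held in the RefSeq table for GRCm38.p6 are shown, with bases 2 to 8 (the seed) in capitals. They were picked by the hexamer alone. Of 1679 mature mouse microRNAs in that table, 8 held the hexamer at this place. miR-292-3p, which carries the hexamer as well, was not among them and is named only. The study names further microRNAs with this hexamer that are absent here too, so the list is not the whole family. The first 5 shared the seed AAGUGCU, the next 2 had AAGUGCA and the last had AAGUGCC.
miR-291a-3p: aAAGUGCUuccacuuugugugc
miR-294-3p: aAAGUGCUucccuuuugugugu
miR-295-3p: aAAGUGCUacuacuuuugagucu
miR-302b-3p: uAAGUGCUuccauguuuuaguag
miR-302d-3p: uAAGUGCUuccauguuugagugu
miR-291b-3p: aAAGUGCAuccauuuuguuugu
miR-350-5p: aAAGUGCAugcgcuuuggg
miR-290a-3p: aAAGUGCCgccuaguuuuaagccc

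The study listed Irak2 and Irak3 among predicted targets of the microRNAs with this hexamer. The list was chosen in part because its genes rose on these arrays, so it is not independent evidence of their direction. A rise on separate arrays of cells without the main cluster of these microRNAs was also required. The study further tested the Irak3 3′ UTR in a luciferase reporter, and reported at least mild repression for every candidate tested this way. No 3′ UTR sequence of a member was used here, and no match to a seed was looked for.

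The labels were first checked on Dicer1. The brighter of its 2 probe sets read 8.29, 8.51 and 7.82 in Dcr WT and 6.39, 6.76 and 5.95 in Dcr KO, a fall of 1.84 on the log2 scale (limma adjusted p = 0.0138). The dimmer probe set read 7.27, 7.27 and 6.49 in Dcr WT and 6.26, 6.41 and 5.89 in Dcr KO, a difference of -0.82 that did not pass (limma adjusted p = 0.0908). Markers of embryonic stem cells were present on every array, between 5.11 and 14.21 for the 10 genes listed, with a summed linear level of 45218 to 49591 in Dcr WT and 49978 to 51322 in Dcr KO. They went both ways and none passed. In 4 of them every Dcr KO array lay above every Dcr WT array, and in 2, Tdgf1 and Utf1, below. Of all genes tested, 17.7% lay above and 21.2% below in this way. Over all probe sets, arrays correlated at 0.992 to 0.996 within Dcr WT, at 0.994 to 0.997 within Dcr KO and at 0.984 to 0.994 across the groups.

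Irak2 and Irak3 were higher in Dcr KO, by 2.39-fold and 2.72-fold, while the other 5 members tested did not pass the threshold. Across all 8782 genes tested, 6.91% passed as higher and 6.42% as lower, and the 7 members tested had 2 higher and none lower. Only for Irak2 and Irak3 did every Dcr KO array lie above every Dcr WT array, as it did for 17.7% of all genes tested. The median difference of the 7 members was 0.04, against -0.02 over all genes tested. Among the 7 members with a Dcr WT mean of at least 16 on the linear scale, 2 were up by at least 1.2-fold and 1, Myd88, was down by as much. The background for these counts was 18.1% of 8781 genes up and 22.0% down.

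Myd88, the adaptor that links most Toll-like receptors and the interleukin-1 receptor to the kinases, read 4.55, 4.80 and 5.09 in Dcr WT and 4.46, 4.47 and 4.58 in Dcr KO. The Dcr KO arrays lay close together at the low end, and the highest of them, replicate 3, just exceeded the lowest Dcr WT array. The difference was -0.31 (SE 0.14, 95% confidence interval -0.64 to 0.02, n = 3 per group), which did not pass (limma adjusted p = 0.182). This was the most negative difference among the members, on a single probe set that read 5.09 or less on every array.

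Irak1, an active kinase that is taken up into the receptor complex and then degraded, read 7.65, 8.01 and 7.72 in Dcr WT and 7.84, 7.74 and 7.23 in Dcr KO as the mean of 4 probe sets. The groups overlapped, with Dcr KO replicate 3 below every other array. The difference was -0.19 (SE 0.18, 95% confidence interval -0.60 to 0.23) and did not pass (limma adjusted p = 0.502). Its 4 probe sets gave differences of -0.43, -0.25, -0.07 and 0.00, none of which passed, and Dcr KO replicate 3 was the lowest array on each of them.

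Irak2, the relative of Irak1 that is known for sustaining the later phase of Toll-like receptor signalling, read 4.78, 4.94 and 4.84 in Dcr WT and 5.99, 5.99 and 6.35 in Dcr KO, with a lone probe set behind the value. The arrays of each group lay close together and the groups were well apart. Irak2 rose from 4.85 ± 0.08 to 6.11 ± 0.21 (SD, n = 3), a difference of 1.26 (SE 0.13, 95% confidence interval 0.96 to 1.55, limma adjusted p = 0.00250). It ranked 70 by size of rise and 38 by p-value among the 8782 genes tested, and it passed on each of the 6 occasions when 1 array was left out.

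Irak3, the member without kinase activity, read 5.59, 4.88 and 5.76 in Dcr WT and 6.37, 6.82 and 7.37 in Dcr KO as the mean of 2 probe sets. Every Dcr KO array lay above every Dcr WT array, but both groups were spread more widely than for Irak2. The difference was 1.44 (SE 0.30, 95% confidence interval 0.75 to 2.13, limma adjusted p = 0.0223), from 5.41 ± 0.47 to 6.85 ± 0.50 (SD, n = 3). Irak3 ranked 47 by size of rise and 529 by p-value. The call was lost without Dcr WT replicate 3 (difference 1.62, limma adjusted p = 0.0515) and without Dcr KO replicate 2 (1.46, limma adjusted p = 0.0618).

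The 2 probe sets of Irak3 were of unequal brightness and were therefore read apart. The brighter one read 7.28, 7.29 and 7.41 in Dcr WT and 8.51, 8.72 and 9.23 in Dcr KO. Here the Dcr WT arrays nearly coincided and the gap to Dcr KO exceeded 1 on the log2 scale. It rose by 1.49 (SE 0.19, 95% confidence interval 1.04 to 1.95, limma adjusted p = 0.0112 over 18789 probe sets), and lost the call only without Dcr KO replicate 2 (adjusted p = 0.0552). The dimmer one read 3.89, 2.47 and 4.11 in Dcr WT and 4.22, 4.91 and 5.51 in Dcr KO. The low Irak3 mean of Dcr WT replicate 2 thus came from the dimmer probe set. Its difference was 1.39 (SE 0.49), which did not pass (limma adjusted p = 0.128), and was 0.88 without Dcr WT replicate 2. Its Dcr WT mean of 3.49 lay under the filter of 4, so it was tested only because of its level in Dcr KO, and of the pair the brighter one alone passed.

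**Figure D1:**
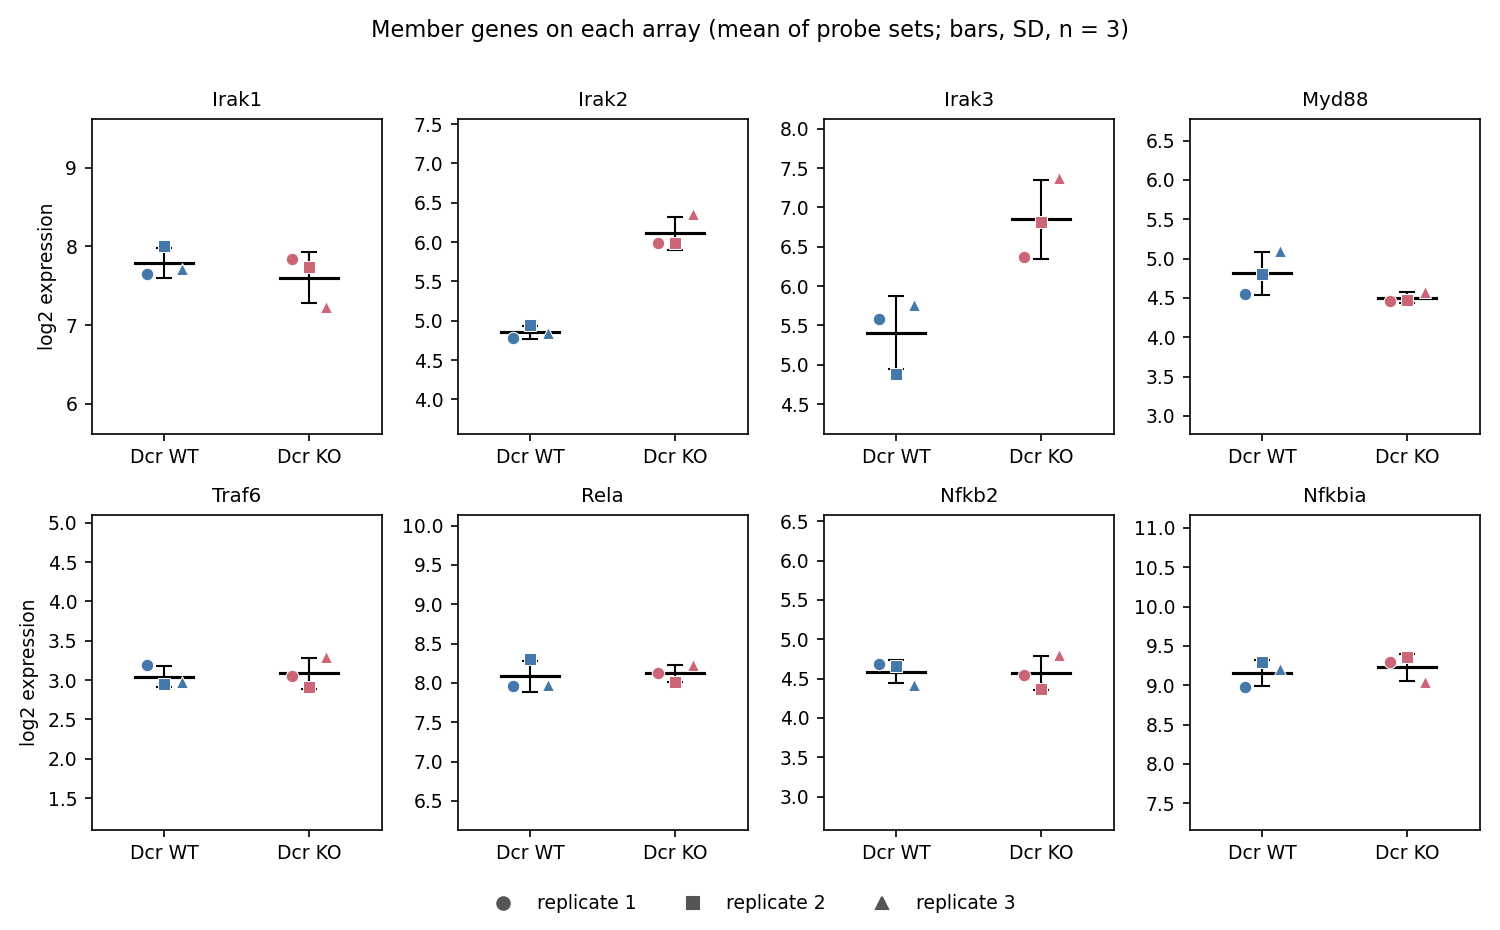
Log2 expression of the 8 measured members on each of the 6 arrays, as the mean of a gene's probe sets; points are arrays (circle, square and triangle for replicates 1, 2 and 3), long lines are group means and bars are SD (n = 3). Each panel spans the same number of log2 units around its own centre. Irak2 and Irak3 are the panels in which the Dcr KO points sit wholly above the Dcr WT points, and the groups overlap in the other 6.

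Traf6, the ubiquitin ligase that the kinases activate, lay under the filter as a gene, at 3.20, 2.95 and 2.98 in Dcr WT and 3.06, 2.91 and 3.29 in Dcr KO. The groups overlapped and the difference of the means was 0.04, with no test. Of its 5 probe sets, 2 were bright enough to be tested and they went opposite ways. The brighter read 4.98, 4.45 and 4.72 in Dcr WT and 4.49, 4.07 and 5.05 in Dcr KO, a difference of -0.18 (limma adjusted p = 0.683). The dimmer read 4.15, 4.30 and 3.93 in Dcr WT and 4.56, 4.44 and 4.38 in Dcr KO. Its groups did not overlap, but the difference of 0.33 did not pass (limma adjusted p = 0.160). The other 3 stayed at or below 2.81 on every array.

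Rela, which encodes the transactivating p65 subunit, read 7.96, 8.31 and 7.98 in Dcr WT and 8.13, 8.01 and 8.23 in Dcr KO. The groups overlapped and the difference was 0.04 (SE 0.13, 95% confidence interval -0.26 to 0.34, limma adjusted p = 0.851). Nfkb2, which encodes the p100 precursor of p52, read 4.68, 4.67 and 4.42 in Dcr WT and 4.54, 4.37 and 4.80 in Dcr KO. Its difference was -0.02 (SE 0.14, 95% confidence interval -0.34 to 0.30, limma adjusted p = 0.937), with both groups across the same range. For neither subunit was a difference detected, and the intervals allow changes of up to 0.34 in either direction.

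Nfkbia, which encodes the inhibitor that holds RELA in the cytoplasm and is itself a target of NF-kappaB, read 8.98, 9.29 and 9.21 in Dcr WT and 9.29, 9.35 and 9.04 in Dcr KO as the mean of 5 probe sets. The groups overlapped and the difference was 0.07 (SE 0.13, 95% confidence interval -0.23 to 0.37, limma adjusted p = 0.740). Its probe sets differed by -0.13 to 0.22, and none of the 4 that were tested passed. The largest of these differences was on the brightest probe set, which read 11.55, 11.97 and 11.72 in Dcr WT and 12.13, 12.05 and 11.72 in Dcr KO (limma adjusted p = 0.416).

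Over the 21 probe sets of the members, 16 were tested and 2 passed, both higher, against 4.69% of all 18789 probe sets tested that passed as higher and 7.75% in either direction. The pair was the single probe set of Irak2 (limma adjusted p = 0.00781) and the brighter one of Irak3. No probe set of Irak1, Myd88, Traf6, Rela, Nfkb2 or Nfkbia passed in either direction.

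**Figure D2:**
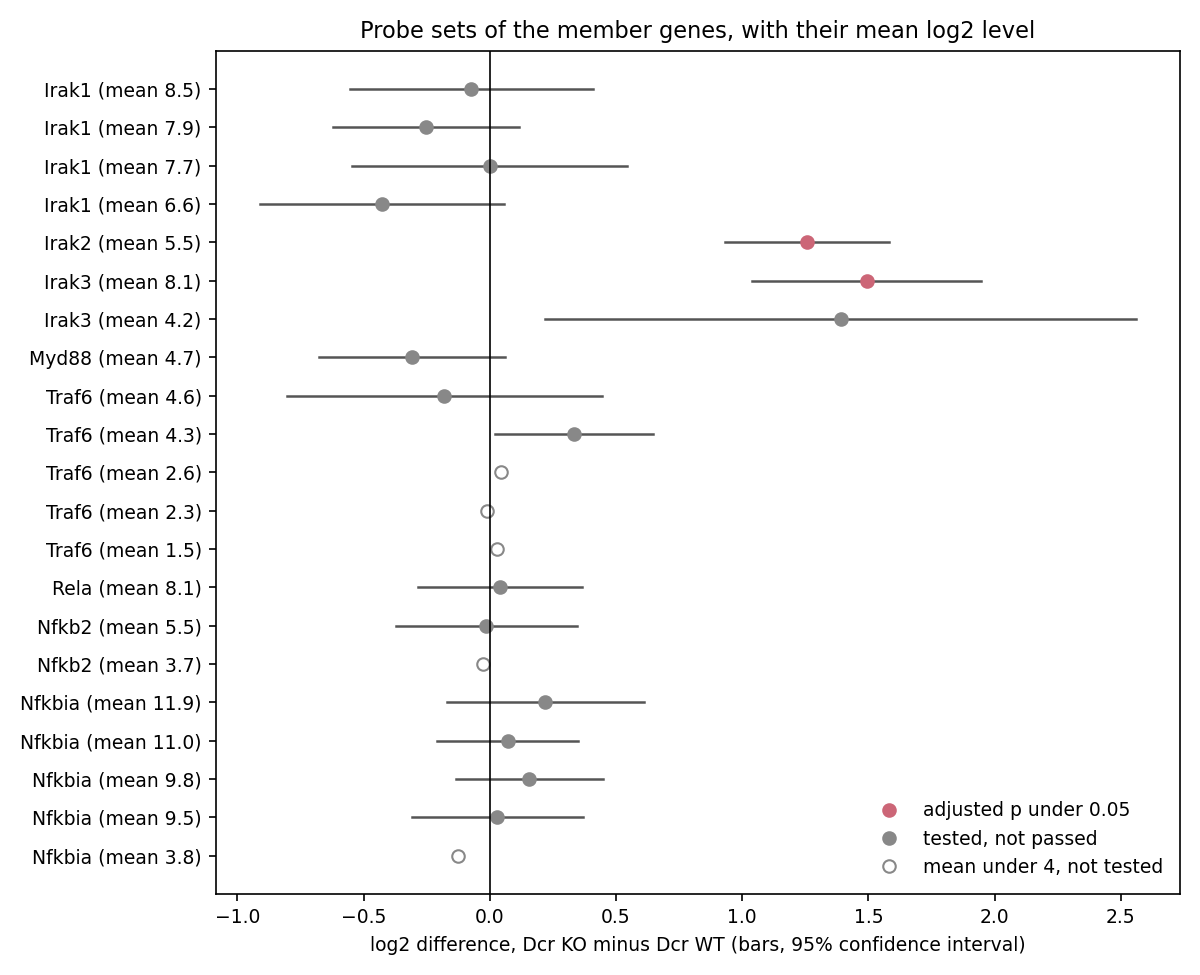
Difference between Dcr KO and Dcr WT (Dcr KO minus Dcr WT, log2 units) for each of the 21 member probe sets, ordered by gene and then by mean level; bars are 95% confidence intervals and open points had a mean under 4 and were not tested. The intervals of the Irak2 probe set and the brighter Irak3 probe set lie far to the right of 0, while the dimmer Irak3 probe set, at 1.39, has the widest interval, 0.22 to 2.56.

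Whether the kinases had moved apart was asked within each array, by the change in the log2 ratio of a pair of genes between the groups. The ratio of Irak3 to Irak1 rose by 1.63 and that of Irak2 to Irak1 by 1.45, with every Dcr KO array above every Dcr WT array. Against Myd88, Rela, Nfkb2 and Nfkbia, the ratio of Irak3 rose by 1.75, 1.40, 1.46 and 1.37, and that of Irak2 by 1.57, 1.22, 1.28 and 1.19, again with no overlap. Each of these had an exact two-sided permutation p of 0.1 (0.109 after adjustment over 12 ratios), the smallest that 20 splits of 3 against 3 arrays can give, so no ratio could pass 0.05 in this design. As each sets Irak2 or Irak3 against a member that did not pass, these ratios largely restate the differences given above. The ratio of Irak3 to Irak2 changed by 0.19 with overlapping groups (exact permutation p = 0.6), in a test that could not have passed.

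The genes whose pattern over the 6 arrays was closest to that of Irak3, out of 8781 compared, were Suox, Snx7, Axl, Fndc3a and Lap3. Their Pearson correlations with Irak3 were 0.999, 0.995, 0.994, 0.994 and 0.993. Suox encodes sulfite oxidase and Axl a receptor tyrosine kinase. With 6 arrays in 2 groups, such values mainly reflect the difference between the groups and the shared arrays, and they are given as a description. The Irak3 pattern used was the mean of its 2 probe sets, in which the low value of Dcr WT replicate 2 came from the dimmer one. The correlation of Irak2 with Irak3 was 0.90.

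Because Irak2 and Irak3 rose together, the DNA in front of them is shown, with that of Nfkb2 and Nfkbia, which did not pass. Each window runs from 250 bases before to 50 bases after an annotated start in RefSeq GRCm38.p6, 5′ to 3′ on the strand of the gene, and capitals mark matches to the kappaB consensus on either strand.
Irak2, chr6:113638217-113638516, plus strand: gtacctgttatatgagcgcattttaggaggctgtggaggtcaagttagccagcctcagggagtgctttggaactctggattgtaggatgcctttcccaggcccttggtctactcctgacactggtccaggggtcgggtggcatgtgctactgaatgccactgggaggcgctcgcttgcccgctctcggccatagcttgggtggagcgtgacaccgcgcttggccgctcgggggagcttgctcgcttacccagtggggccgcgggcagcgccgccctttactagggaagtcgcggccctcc
Irak3, chr10:120201548-120201847, minus strand: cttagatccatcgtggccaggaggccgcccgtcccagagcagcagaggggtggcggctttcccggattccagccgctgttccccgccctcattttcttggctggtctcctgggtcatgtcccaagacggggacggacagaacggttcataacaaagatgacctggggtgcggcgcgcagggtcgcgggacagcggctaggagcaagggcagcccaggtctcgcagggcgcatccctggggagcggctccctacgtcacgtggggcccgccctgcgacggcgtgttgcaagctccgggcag
Irak3, second start, chr10:120202081-120202380, minus strand: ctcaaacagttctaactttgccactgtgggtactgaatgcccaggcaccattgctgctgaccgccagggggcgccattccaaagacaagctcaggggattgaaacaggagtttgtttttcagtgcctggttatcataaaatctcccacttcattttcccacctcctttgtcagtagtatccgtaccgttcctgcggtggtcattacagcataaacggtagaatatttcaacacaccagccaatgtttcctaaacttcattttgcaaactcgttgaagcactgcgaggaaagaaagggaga
Nfkb2, chr19:46304487-46304786, plus strand: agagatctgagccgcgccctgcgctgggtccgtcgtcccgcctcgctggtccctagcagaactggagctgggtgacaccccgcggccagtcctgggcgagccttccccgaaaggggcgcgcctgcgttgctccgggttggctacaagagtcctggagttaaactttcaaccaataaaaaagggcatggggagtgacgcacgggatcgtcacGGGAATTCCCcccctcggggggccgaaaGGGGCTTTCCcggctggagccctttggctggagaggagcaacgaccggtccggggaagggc
Nfkbia, chr12:55492598-55492897, minus strand: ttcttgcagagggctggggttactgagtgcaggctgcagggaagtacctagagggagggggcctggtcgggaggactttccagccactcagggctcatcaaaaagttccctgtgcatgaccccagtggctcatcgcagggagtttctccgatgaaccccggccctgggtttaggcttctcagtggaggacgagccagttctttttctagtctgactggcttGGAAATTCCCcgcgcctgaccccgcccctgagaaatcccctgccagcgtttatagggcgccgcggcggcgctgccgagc

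The Nfkb2 window held the consensus at -39, where the letters read alike on both strands, and at -11 from the annotated start. The Nfkbia window held it at -29. The windows of Irak2 and Irak3 held no match, nor did those of Irak1, Irak4, Myd88, Traf6 and Rela. In all, 4 of 13 windows of the members held the consensus, 3 of them from starts of Nfkb2 and 2 of these overlapping at a single match, against 5.8% of 32851 mouse windows of the same length. No window of Nfkb1 was read. A match is a run of letters and not a bound site, and a window without one says nothing of the factor.

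The wider pathway was read from 5 lists of 105 genes, of which 97 were measured and 46 tested. Of these 46, 2 were higher, 5 were lower and 39 did not pass, against 13.3% of all genes tested that passed in either direction. The median difference of the 46 was 0.03. The lists were set up with earlier results of these arrays known.

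The receptors and adaptors above the kinases were mostly dim on these arrays. Of 19 measured, 3 were tested and none passed, and none had an unadjusted limma p under 0.05. As gene means, the other 16 lay between 1.10 and 3.47 on every array, Tlr1 to Tlr9 among them, with differences of -0.18 to 0.29 for these Toll-like receptors. Of these 16, 1 had a probe set bright enough to be tested. This was Fadd, an adaptor of death receptors, which read 3.83, 3.93 and 4.09 in Dcr WT and 4.18, 4.37 and 4.33 in Dcr KO on that probe set, a difference of 0.34 that did not pass (limma adjusted p = 0.123). Tirap, the adaptor that brings MYD88 to the membrane, read 4.83, 4.88 and 4.85 in Dcr WT and 4.59, 4.84 and 4.49 in Dcr KO, a difference of -0.22 (limma adjusted p = 0.239). Tnfrsf1a, the main receptor for tumour necrosis factor, differed by 0.06 (limma adjusted p = 0.837).

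Among the kinases and ubiquitin enzymes between the receptors and NF-kappaB, 14 of 25 measured were tested and 2 fell. Rbck1, which encodes the HOIL-1 subunit of the linear ubiquitin ligase, read 8.46, 8.83 and 8.53 in Dcr WT and 8.12, 7.74 and 7.71 in Dcr KO. It fell by 0.75 (SE 0.15, limma adjusted p = 0.0217). Traf2, an adaptor of tumour necrosis factor receptors, read 5.58, 5.42 and 5.66 in Dcr WT and 4.75, 5.20 and 4.99 in Dcr KO. It fell by 0.57 (SE 0.14, limma adjusted p = 0.0340). In the fit over single probe sets, Rbck1 passed (limma adjusted p = 0.0420) and Traf2 did not (limma adjusted p = 0.0615). Both had every Dcr KO array below every Dcr WT array. Leaving out 1 array ended the Rbck1 call in 4 of 6 fits (adjusted p up to 0.0756) and the Traf2 call in 5 of 6 (up to 0.105). Among the genes of this list under the filter, 4 had a probe set that was tested. One of these passed, that of Birc3 (the ubiquitin ligase cIAP2), named after its values were seen, at 4.98, 5.08 and 5.02 in Dcr WT and 5.54, 5.64 and 5.48 in Dcr KO (difference 0.53, limma adjusted p = 0.0330).

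The other NF-kappaB and IkappaB proteins held a pair of relatives that moved in opposite directions, out of 10 genes tested. Nkiras1 and Nkiras2 encode small Ras-like proteins that bind IkappaB and slow its destruction. Nkiras1 is also in the study's list of predicted targets, chosen in part by a rise on these arrays, while Nkiras2 is not. Cyld, Fadd, Ikbkb and Sod2 of the other lists are in it as well, as is Ripk1, which was not measured. Ikbkb was under the filter as a gene and differed by 0.56 on its brightest probe set (limma adjusted p = 0.101). Sod2 differed by 0.33 as a gene and did not pass (limma adjusted p = 0.0529). A probe set of Sod2 passed when read singly (difference 0.74, limma adjusted p = 0.0277). Nkiras1 read 7.13, 7.34 and 7.04 in Dcr WT and 7.85, 7.86 and 7.91 in Dcr KO, and rose by 0.70 (SE 0.11, limma adjusted p = 0.00992). Nkiras2 read 6.98, 7.03 and 7.04 in Dcr WT and 6.43, 6.10 and 6.16 in Dcr KO, and fell by 0.79 (SE 0.11, limma adjusted p = 0.00805). Neither pair of groups overlapped, and both calls held in all 6 fits without 1 array.

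**Figure D3:**
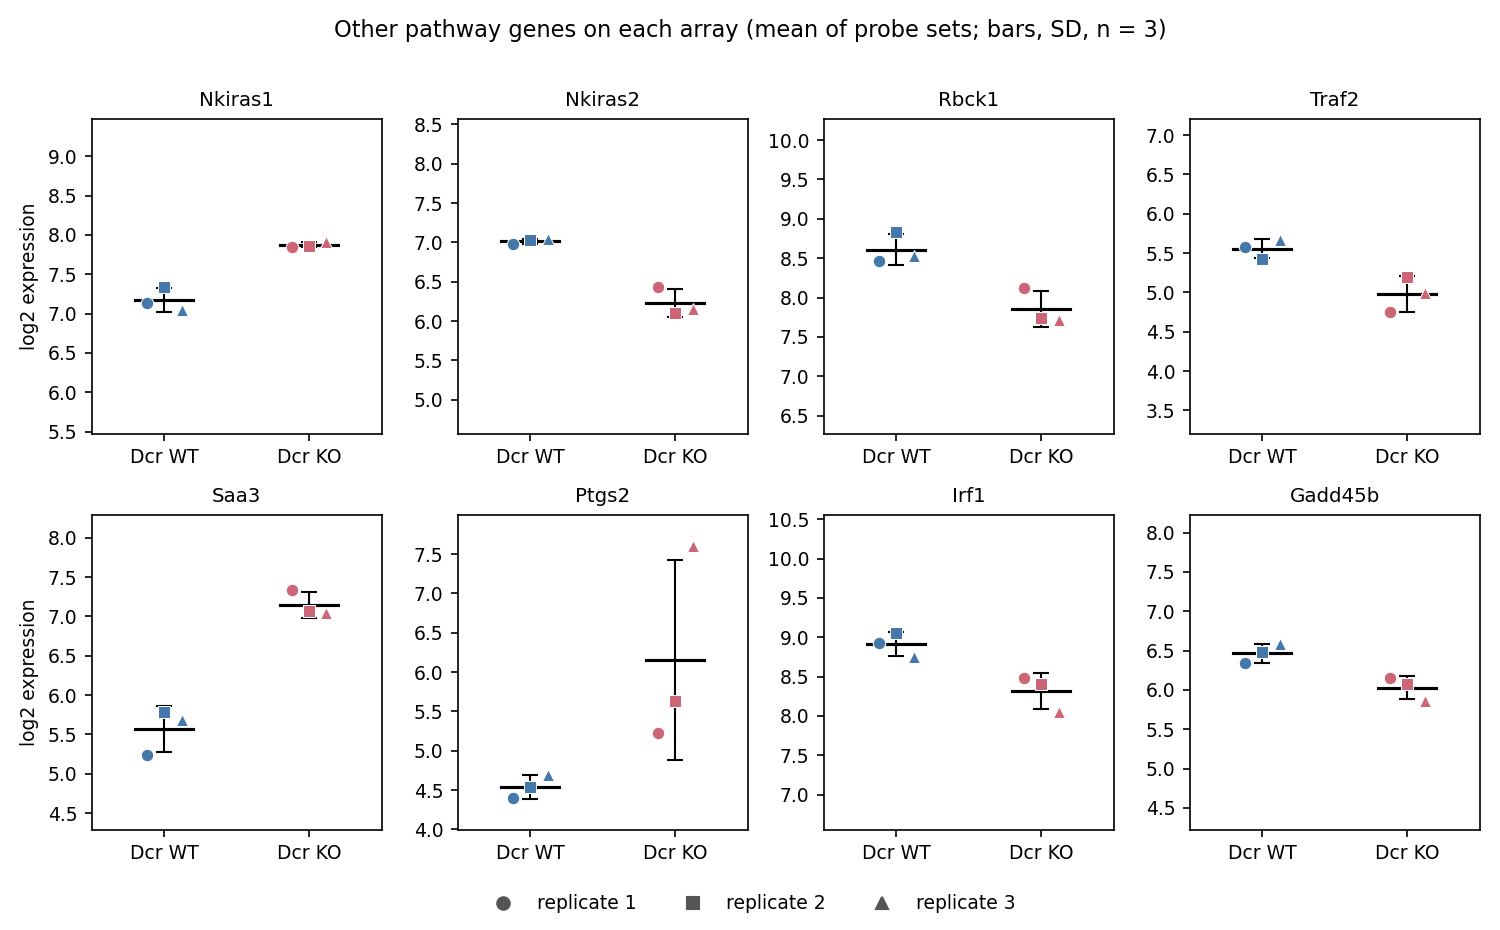
Log2 expression of 8 other genes of the pathway on each array, drawn as for the members (points are arrays, lines are means, bars are SD, n = 3). Nkiras1 and Saa3 are higher in Dcr KO, Nkiras2, Rbck1, Traf2, Irf1 and Gadd45b are lower, and the Ptgs2 panel shows Dcr KO replicate 3 at 7.60, far above the other arrays.

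Of the negative regulators other than Irak3, 10 were tested and none passed, with 2 higher and none lower at an unadjusted limma p under 0.05, a level that 14.7% of all genes tested reached as higher and 17.3% as lower. Cyld, a deubiquitinase that removes chains built by TRAF6, read 5.04, 4.92 and 4.93 in Dcr WT and 5.30, 5.28 and 5.68 in Dcr KO. Its groups did not overlap, and the difference of 0.45 narrowly missed the threshold (SE 0.13, limma adjusted p = 0.0594). It passed under 2 of 17 alternatives, one of them the median of its probe sets (0.75, limma adjusted p = 0.0292). On its brightest probe set it was at 0.42 (limma adjusted p = 0.209), and the gene mean passed in none of the 6 fits without 1 array. A dimmer probe set of Cyld passed when read singly (difference 1.12, limma adjusted p = 0.0221), and no other did. Its Dcr WT mean of 3.67 lay under the filter, so it was tested only because of its level in Dcr KO. Tnfaip3, which encodes the ubiquitin-editing enzyme A20, differed by 0.32 (limma adjusted p = 0.198).

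The target genes of NF-kappaB that passed went both ways. Of 28 measured, 19 were under the filter, and of the 9 tested, 1 rose and 2 fell. At an unadjusted limma p under 0.05, 5 of the 9 were higher (55.6%, against 14.7% of all genes tested) and 2 lower (22.2%, against 17.3%). Their median difference was 0.33, against -0.02 over all genes tested and -0.0033 for all 28 measured. Saa3, which encodes an acute-phase serum amyloid protein, read 5.24, 5.78 and 5.69 in Dcr WT and 7.34, 7.07 and 7.04 in Dcr KO, a rise of 1.58 or 2.99-fold (SE 0.16, limma adjusted p = 0.00254). Irf1, a transcription factor of the interferon response, read 8.93, 9.06 and 8.75 in Dcr WT and 8.48, 8.41 and 8.05 in Dcr KO. It fell by 0.60 (SE 0.14, limma adjusted p = 0.0346). Gadd45b, a stress-response gene, read 6.34, 6.48 and 6.58 in Dcr WT and 6.15, 6.07 and 5.86 in Dcr KO, and fell by 0.44 (SE 0.12, limma adjusted p = 0.0483). Saa3 passed in all 6 fits without 1 array, Irf1 in 1 of them (adjusted p up to 0.0862) and Gadd45b in none (up to 0.127). In the fit over single probe sets, Saa3 passed (limma adjusted p = 0.00804) and Irf1 did not (limma adjusted p = 0.0620). No probe set of Gadd45b passed there.

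Ptgs2, which encodes the cyclooxygenase COX-2, had the largest rise among the targets and did not pass. It read 4.40, 4.54 and 4.70 in Dcr WT and 5.23, 5.63 and 7.60 in Dcr KO, a difference of 1.61 (SE 0.54, limma adjusted p = 0.0837). Every Dcr KO array lay above the Dcr WT arrays, and replicate 3 stood far above the other two. Without that array the difference was 0.89 and passed (limma adjusted p = 0.0234), and without Dcr KO replicate 1 it was 2.07 and passed (limma adjusted p = 0.0469). Dcr KO replicate 3 was also the highest array for Irak2 and Irak3 and the lowest for Irak1.

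**Figure D4:**
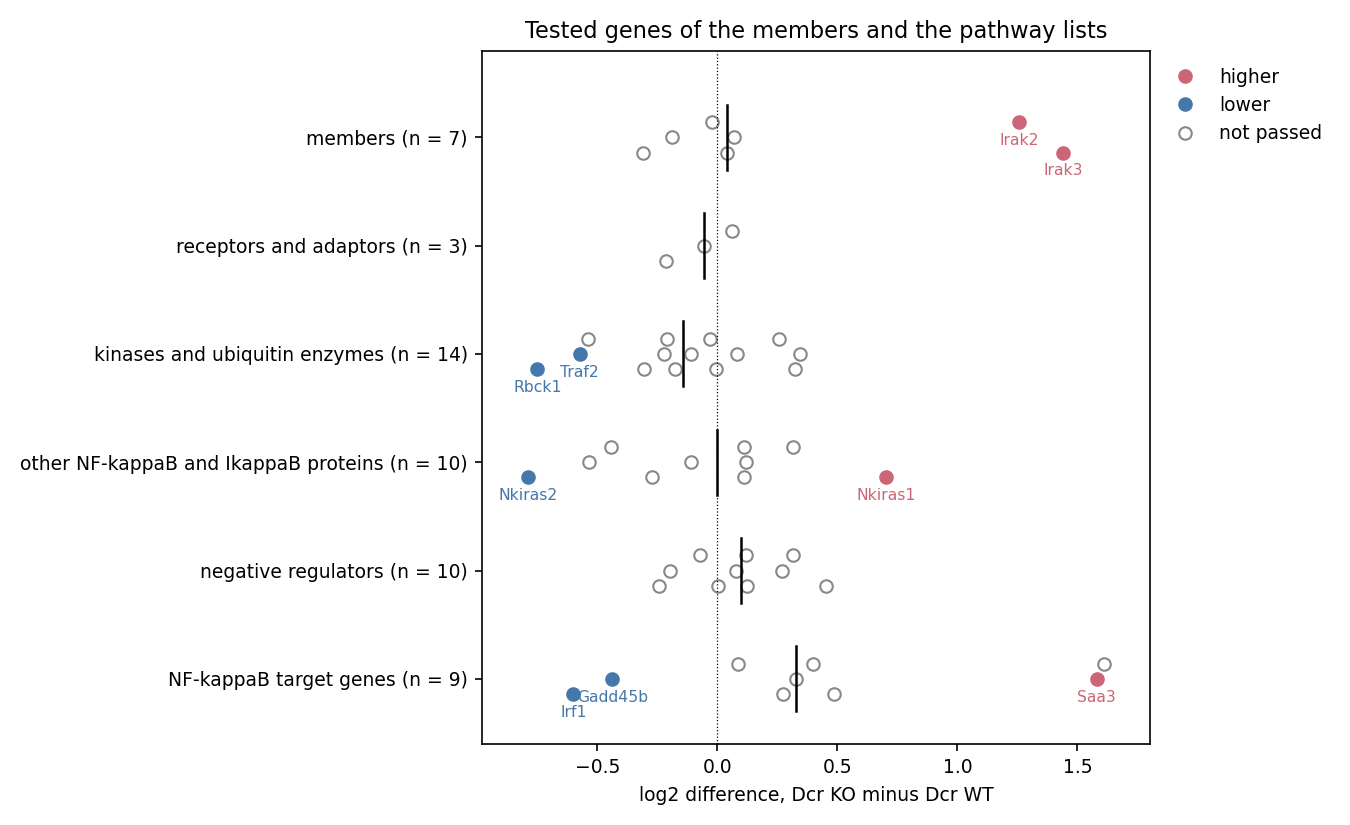
Difference between Dcr KO and Dcr WT (Dcr KO minus Dcr WT, log2 units) for the 7 members tested and the 46 tested genes of the 5 pathway lists; filled red points passed as higher, filled blue points as lower, open points did not pass, and black bars are list medians. Irak2 and Irak3 stand apart from the other members at 1.26 and 1.44, and within the lists only Nkiras1 and Saa3 passed as higher.

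Irak3 is best known from macrophages, so markers of other cells were read beside it. Of 10 macrophage and blood cell genes, 8 stayed under 4 on every array, and the defining markers Ptprc, Adgre1 and Csf1r were at or below 2.36 throughout. Laptm5 was the one gene of this list whose groups did not overlap, at 3.69, 3.93 and 3.83 in Dcr WT and 4.14, 3.98 and 4.41 in Dcr KO. The summed linear level of the 10 genes was 90.7 to 104 in Dcr WT and 88.3 to 152 in Dcr KO, the upper value being that of Dcr KO replicate 3, on which Cd68 read 6.68. Of 10 fibroblast genes, 7 stayed under 4 on every array, with sums of 67.9 to 92.5 in Dcr WT and 87.0 to 91.4 in Dcr KO. Their members went both ways, with 4 above and 2 below without overlap. Of all genes tested, 17.7% lay above and 21.2% below in this way, a share over brighter genes, as 9 of these 10 were under the filter. Among those above was Col3a1, at 2.63, 3.77 and 2.56 in Dcr WT and 3.88, 4.23 and 4.52 in Dcr KO. Its difference of 1.22 was not tested because its mean was under the filter. The 8 endoderm genes summed to 175 to 221 in Dcr WT and 250 to 269 in Dcr KO, and 6 of them stayed under 4 on every array, Sox17, Gata4, Gata6 and Foxa2 included. The gap between these sums was that of Lama1, a laminin chain, which passed as higher (0.52, limma adjusted p = 0.0409). The other 7 genes summed to 49.1 to 53.0 in Dcr WT and 49.3 to 53.3 in Dcr KO. Lama1 and Gata6 were the endoderm genes whose groups did not overlap. Gata6 read 1.80, 1.95 and 1.74 in Dcr WT and 2.14, 2.03 and 2.28 in Dcr KO, under the filter and not tested. Without Dcr KO replicate 3, Irak2 differed by 1.14 (limma adjusted p = 0.00423) and Irak3 by 1.18 (limma adjusted p = 0.0452). On Dcr KO replicates 1 and 2, Laptm5 also lay above every Dcr WT array. The part of the cells behind these markers in the rise of Irak2 and Irak3 was not tested.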

How the data were processed

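Total RNA of 3 Dcr WT and 3 Dcr KO samples was measured on Affymetrix arrays. For each of 45037 probe sets and each array, the authors deposited a log2 value. GCRMA 2.20.0, run in R 2.11.1, is named in the processing notes of the submitters. Whether other arrays were normalized with these is a point that the sources used here do not give. No array column was left unused (0 columns). Arrays have no read depth, so their number limits the precision.

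Probe sets were named from the platform annotation: 34945 had 1 symbol, 932 several and 9160 none here, and only the first kind was used. Gene IDs of 34741 were found in RefSeq GRCm38.p6, which changed 0 symbols. A gene's value was the mean log2 value of its probe sets. Dcr KO and Dcr WT were compared by the moderated linear models (lmFit, eBayes) of limma 3.58.1, run in R 4.3.3, over the 8782 genes that averaged 4 or more in log2 units (16 linear) across the arrays, with Benjamini-Hochberg adjustment and a threshold of 0.05. Single probe sets were fitted in the same way over 18789. Ratios within arrays had exact permutation tests. On simulated data of 8782 genes the fit called 1.5% of genes changed by 1.2-fold, 35.5% at 1.5-fold, 75.1% at 2-fold and 96.8% at 4-fold. The simulation changed only a small share of the genes and used independent normal noise, so these rates are not the power on the real arrays.

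Members, pathway lists and markers were chosen with earlier results of these data known. Named were all members, Dicer1, pathway genes past the threshold, the 2 largest differences of each pathway list and the 5 genes most like Irak3. Ikbkb, Sod2 and Ripk1 were named because the study lists them as predicted targets. Alternatives changed the filter, the probe set summary, the normalization, the block and the arrays included. Figures were drawn with matplotlib 3.10.9.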

Additional observations from a re-analysis of the deposited data

How the results depend on the processing

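Irak2 passed under all 17 alternatives, with differences of 1.14 to 1.32 and limma adjusted p of 0.00202 to 0.0160. Irak3 passed under 15, with differences of 1.18 to 1.68 and adjusted p of 0.00405 to 0.0618, and was lost without Dcr WT replicate 3 (1.62) and without Dcr KO replicate 2 (1.46), where the fits had fewer arrays. The number of members called was 2 in every fit with all arrays and 1 to 2 when 1 array was left out, and the number of member probe sets called was also 2, and 1 to 2 with 1 array left out. No other member passed in any fit. Members close to 0 changed sign: Rela ranged over -0.022 to 0.15, Nfkb2 over -0.13 to 0.081 and Nfkbia over -0.021 to 0.16 when 1 array was left out, Nfkbia was at -0.0089 without the _x_at and _s_at probe sets, which can match several transcripts, and Traf6 was at -0.18 on its brightest probe set. Tnfrsf1a ranged over -0.11 to 0.18 when 1 array was left out. The setting without _x_at and _s_at probe sets and that with probe sets of at least 16 only were chosen after seeing the data.

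The 7 pathway genes called became 11 when each gene was read on its brightest probe set (5 higher and 6 lower), where 54 rather than 46 genes were tested, and 3 to 6 when 1 array was left out. With the replicate number as a block there were 4 (Nkiras1, Saa3, Irf1 and Nkiras2), while over all genes the calls went from 607 higher and 564 lower to 354 and 243. Deviations of samples with the same number correlated at -0.22, -0.02 and 0.03, and no sample correlated best with its own number. With so few arrays this check cannot settle whether the numbers pair the samples, which the labels do not say. Irak2 and Irak3 passed with the block as well (adjusted p = 0.0130 and 0.0285). The median of all genes was -0.04 after quantile normalization or median centring, against -0.02 as reported. As gene means, Traf6 and 16 of the 19 receptors and adaptors were under the filter and had no test.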
